A study of Mus musculus with 12 samples.

Results

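The genes described here are 38 genes of the DNA damage response and of DNA repair, out of 22548 genes measured by RNA-seq in mouse long-term hematopoietic stem cells (HSCs). The members were taken as a list of gene symbols that covers p53 and its inhibitors, effectors of p53, checkpoint kinases, sensors of double-strand breaks, homologous recombination, end joining, the Fanconi anemia pathway, excision repair with Parp1, and telomere maintenance, and all 38 symbols were found in the table. HSCs were sorted from C57BL/6 mice that were young (2 to 4 months, n = 4 samples, replicates 2 to 5) or aged (20 to 26 months, n = 5, replicates 0 and 2 to 5). A further 3 samples of aged HSCs (replicates 1 to 3) received 5 µM CASIN, a small molecule that lowers the activity of the RhoGTPase Cdc42. All samples, the controls included, come from cells that per the labels were kept in culture for 16 h at 3% O2, so no freshly lysed HSCs were compared. Young and aged mice came in part from different suppliers, which cannot be told apart from age here. The study's methods describe replicates as biological repeats taken from different mice and on different days, and the labels do not tie a sample to a mouse or a day.

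In cells with damaged DNA, the kinases Atm and Atr are recruited to double-strand breaks and to stretches of single-stranded DNA, and they signal through Chek1 and Chek2 to halt the cell cycle and to stabilize p53. p53, encoded by Trp53, induces genes for arrest and apoptosis, while Mdm2 and Mdm4 hold it low in unstressed cells. HSCs divide rarely and are known to rely on end joining while quiescent, and loss of Fanconi anemia genes or of telomere maintenance depletes them.

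Expression was given by the authors as quantile-normalized log2 values without read counts, so that the depth is unknown. In every sample the genes without signal share the lowest value of that sample, and a gene above this value is called detected below. The lowest value ranged from 0.43 to 0.67 in young, from 0.02 to 0.23 in aged and from 0 to 0.63 in CASIN-treated samples. A member detected nowhere in 2 groups therefore still shows a small difference between them. Samples resembled each other only in part, with correlations across all genes between 0.40 and 0.64. In young samples 28.3 percentage points more of the genes were without signal than in aged samples (exact permutation, two-sided, p = 0.00794, which is also the lowest that 4 and 5 samples can give). CASIN replicate 2 stood apart from its group, with 88.8% of genes detected against 30.4% and 32.3% in replicates 1 and 3. Of the HSC marker genes, Meis1 was detected in 12 of 12 samples and Hlf in 11, but Kit and Ly6a, which encode the c-kit and Sca-1 proteins used for the sort, were each detected in only 4 samples and in no young sample. Cd48, which HSCs lack, was at the lowest value in all 12 samples, but Cd34 and Flt3, which the sort excludes, were detected in 6 and 7 samples. Markers of other blood lineages were mixed. Cd3d, Cd4, Cd8a and Itgam were detected in all 12 samples, while Hbb-b1, Hbb-bs and Hbb-bt were detected in none.

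Most members were detected in only some of the samples of a group. Between 15 and 21 of the 38 members were detected in young samples (median 17), between 25 and 35 in aged samples (median 26), and 15, 37 and 18 in CASIN replicates 1, 2 and 3. Young and aged samples did not overlap in this number. The share of all genes detected moved with it, from 34.3% ± 7.56 (SD, n = 4) in young to 62.6% ± 11.9 (SD, n = 5) in aged samples, while the members went from 46.1% ± 6.62 to 74.7% ± 11.7. Counting only members with a log2 value of at least 3, young samples had 13 to 17 members (median 14), aged samples 12 to 18 (median 16) and CASIN-treated samples 14 to 18 (median 15), and the groups overlapped. On average this was 38.2%, 41.6% and 41.2% of the members, beside 29.2%, 30.5% and 30.9% of all genes. Quantile normalization holds the share of all genes at a level nearly alike, so this overlap does not show that expression was equal. This level was chosen after the values had been seen. Of the 6 members detected in no young sample, Bax stayed under 3 in all aged samples, while Gadd45b (3.48), Mre11a (7.64), Fancc (4.95), Fancl (4.09) and Fancm (6.19) had a highest aged value above it. In bulk samples such as these, fewer cells of a type and less RNA per cell cannot be told apart.

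**Figure D1:**
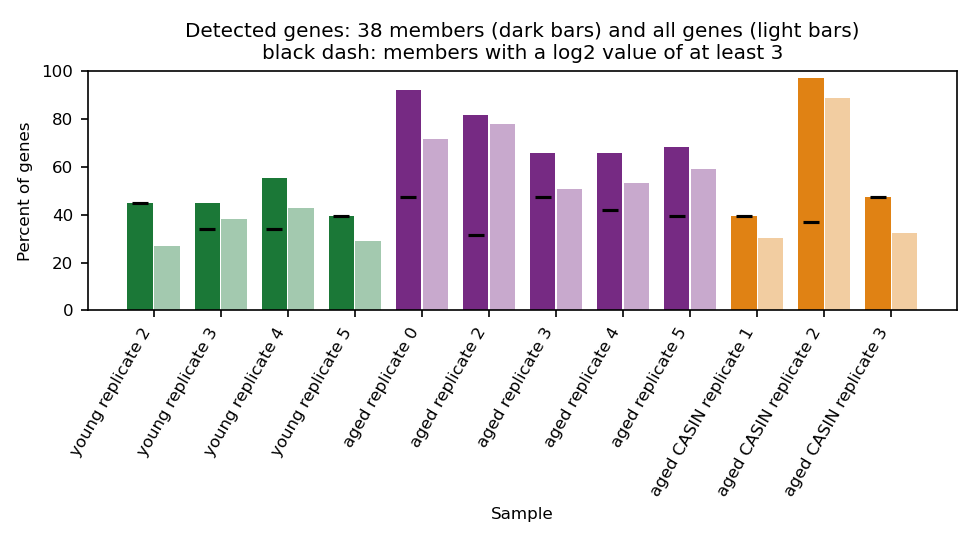
Percentage of the 38 members (dark bars) and of all 22548 genes (light bars) above the lowest value of each sample, with samples on the x axis coloured by group (green, young; purple, aged; orange, aged CASIN-treated). The black dash gives the percentage of members with a log2 value of at least 3, which lies between 31.6% and 47.4% in all samples. For all genes this share (not drawn) lies between 27.0% and 32.2%.

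Detection differed between members. In all 12 samples 4 of the 38 members were detected, namely Mdm2, Bbc3, Atm and Chek1, beside 9.50% of all genes, a share close to theirs. In at least 10 samples 11 members were detected. Of all genes, 4.60% were detected in exactly 10 samples and 3.88% in exactly 11. At the other end, 7 members were detected in at most 4 samples. Members detected in at least 10 samples had a median exonic length of 8533 bases, those in 5 to 9 samples (20 members) 4899.5 bases and those in at most 4 samples 3372 bases. Across the 38 members, the number of samples with detection and the exonic length had a Spearman correlation of 0.47, given as a description, since these points share the same 12 libraries. The share of this in any difference between members was not tested, and levels are not compared between genes here.

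**Figure D2:**
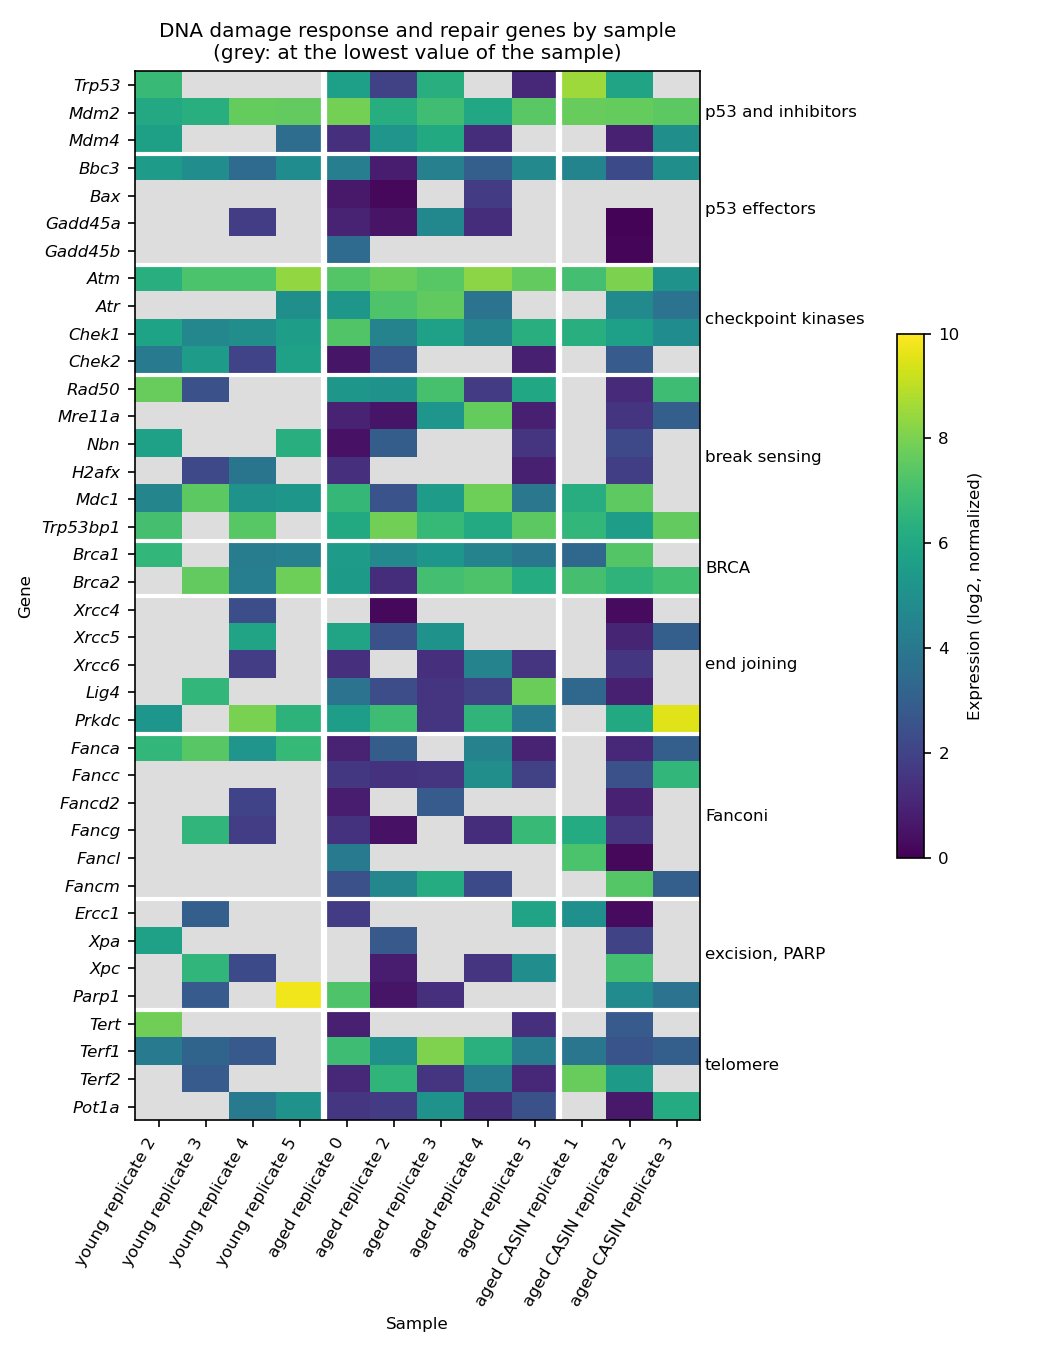
Log2 expression of the 38 members (rows, grouped by role) in the 12 samples (columns, white lines separate the groups). Grey cells are values equal to the lowest of the sample. Only the rows of Mdm2, Bbc3, Atm and Chek1 are coloured throughout, and the other 34 are grey in at least 1 sample.

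Among p53 and its inhibitors, Mdm2, the ubiquitin ligase that degrades p53, was detected in every sample. Its log2 values were 6.02, 6.26, 7.63 and 7.59 in young samples, 7.90, 6.22, 6.93, 5.99 and 7.45 in aged samples and 7.67, 7.63 and 7.48 in CASIN-treated samples. The groups overlapped, with a difference of young and aged HSCs of -0.03 (95% interval -1.19 to 1.14). Trp53 itself was detected in 1 of 4 young, 4 of 5 aged and 2 of 3 CASIN-treated samples, with values from the lowest of the sample up to 8.52. Mdm4, a relative of Mdm2 that binds p53, was detected in 2, 4 and 2 samples of the groups, in the same order. All 3 genes had a lower mean in young than in aged HSCs, and none passed an unadjusted limma p of 0.05.

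Of the p53 effectors, Bbc3, which encodes the apoptosis inducer Puma, was detected in every sample. Its values were 5.49, 4.89, 3.49 and 4.86 in young, 4.29, 0.76, 4.37, 3.03 and 4.69 in aged and 4.52, 2.25 and 4.99 in CASIN-treated samples. The groups overlapped, and the mean difference of 1.26 between young and aged HSCs had a 95% interval from -0.70 to 3.21. Bax, which opens the mitochondrial outer membrane, was detected in 3 aged samples, with a highest value of 1.80, and in no young or CASIN-treated sample. Gadd45a and Gadd45b, stress genes that are induced by damage or cytokines, were detected in 6 and 2 samples in all.

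Atm, the kinase that responds to double-strand breaks, had values of 6.31, 7.16, 7.17 and 8.37 in young samples, 7.33, 7.67, 7.41, 8.27 and 7.59 in aged samples and 7.0, 8.02 and 5.13 in CASIN-treated samples. These ranges overlapped, with a difference between young and aged HSCs of -0.40 (95% interval -1.74 to 0.95). Chek1, the kinase downstream of Atr, ranged from 4.62 to 5.81 in young, from 4.48 to 7.28 in aged and from 4.85 to 6.27 in CASIN-treated samples. For Chek1 the difference was -0.43 (95% interval -1.83 to 0.97). For Mdm2, Bbc3, Atm and Chek1, all detected in every sample, the 95% intervals in this comparison thus reached at most 3.21 log2 units from 0.

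**Figure D3:**
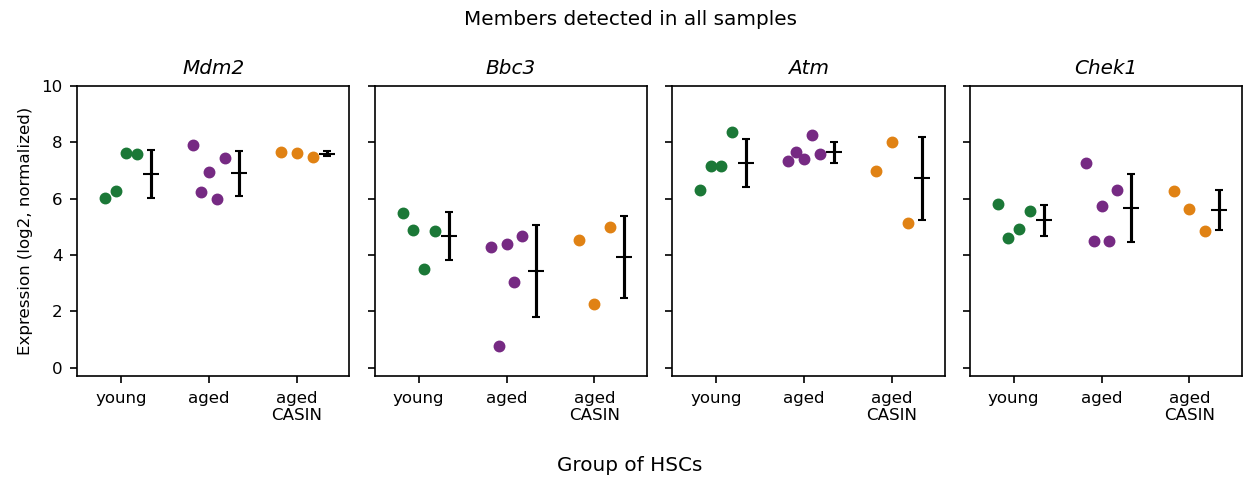
Log2 expression of the 4 members detected in all samples, by group. Points are samples, and the black bars show the mean and SD of young (n = 4), aged (n = 5) and CASIN-treated (n = 3) samples, whose ranges overlap for each gene.

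The first comparison asks how HSCs change with age. In young HSCs, Fanca and Chek2 were higher and Terf1 was lower than in aged HSCs, each by more than 3 log2 units. These 3 of 38 members (7.89%) had an unadjusted limma p under 0.05, beside 5.33% of all 22548 genes (2.13% higher and 3.2% lower in young HSCs), and the members' share is close to this background. None of the members had an adjusted p under 0.05 (limma, lowest adjusted p = 0.377), beside 0.0177% of all genes. Among the members, the mean of 15 was higher and that of 23 lower in young samples (39.5% higher, 49.5% over all genes), with a median log2 fold change of -0.31 beside -0.02 for all genes. This split depends on the scaling: after centring on the 2143 genes detected in all samples, 24 were higher and 14 lower, with a shift of 0.45 for all genes. The 95% intervals reached a median of 3.04 log2 units to either side of a member's fold change, so that changes of less than this were mostly not detectable.

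Fanca, a subunit of the Fanconi anemia core complex that acts on DNA crosslinks, had log2 values of 6.62, 7.40, 5.23 and 6.69 in young samples. In aged samples the values were 0.98, 2.94, 0.23, 4.49 and 1.0, of which only replicate 3 was at the lowest value. The 2 groups did not overlap, and all 4 young samples were above the highest aged sample. The means were 6.48 ± 0.91 (SD, n = 4) and 1.93 ± 1.75 (SD, n = 5), and the log2 fold change was 4.56 (SE 0.91, limma adjusted p = 0.377). Fanca lies on chr8:123268300-123318576 (mm10, minus strand). It shares 920 exonic bases, 10.5% of its exons, with Zfp276 on the opposite strand. The values of Zfp276 in young samples were 0.67, 6.16, 0.43 and 0.65, so that it was detected in 1 of these 4 samples, and it was detected in 5 of the 10 samples that detected Fanca in all.

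Chek2, the checkpoint kinase downstream of Atm, had values of 4.11, 5.51, 2.03 and 5.73 in young samples. The aged samples were at 0.58, 2.69, 0.23, 0.22 and 0.89, of which replicates 3 and 4 were at the lowest value. Young replicate 4 was below aged replicate 2, and the other young samples were above all aged ones. The means were 4.35 ± 1.70 (SD, n = 4) and 0.92 ± 1.03 (SD, n = 5), with a log2 fold change of 3.42 (SE 0.87, limma adjusted p = 0.534). Chek2 lies on chr5:110839979-110874145 (mm10, plus strand). It shares no exonic base with another annotated gene of the types searched, which were protein-coding and some noncoding types without pseudogenes and small RNAs.

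The promoter sequences of these members are shown because both were higher in the same group. They are the RefSeq sequences (GRCm38.p6, 300 bases, 5′ to 3′ along the gene) of chr5:110839733-110840032 for Chek2 (plus strand) and chr8:123318527-123318826 for Fanca (minus strand), and 2 of the 3 members past the unadjusted threshold were matched. Terf1 was not matched. Capitals mark matches to the motifs searched on both strands, which were CCAAT (a box bound by NF-Y), GGGCGG (a GC box), and TTTCGCGC, TTTGGCGC and TTTCCCGC (forms of the E2F site).
Chek2: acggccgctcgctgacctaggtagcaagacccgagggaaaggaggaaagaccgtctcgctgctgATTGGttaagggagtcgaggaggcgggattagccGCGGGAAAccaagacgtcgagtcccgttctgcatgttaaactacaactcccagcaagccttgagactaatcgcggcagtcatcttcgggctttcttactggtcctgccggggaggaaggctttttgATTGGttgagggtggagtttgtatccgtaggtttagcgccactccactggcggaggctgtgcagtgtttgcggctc
Fanca: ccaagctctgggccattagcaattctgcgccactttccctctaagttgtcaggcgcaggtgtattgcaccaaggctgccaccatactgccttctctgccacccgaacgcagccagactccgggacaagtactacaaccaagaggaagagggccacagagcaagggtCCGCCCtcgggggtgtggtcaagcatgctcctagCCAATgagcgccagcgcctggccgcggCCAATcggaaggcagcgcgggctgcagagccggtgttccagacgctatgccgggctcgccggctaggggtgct

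In the Chek2 promoter CCAAT occurred on the minus strand at -186 and -26 from the annotated start, and TTTCCCGC on the minus strand at -152. In the Fanca promoter CCAAT occurred on the plus strand at -50 and -23, and GGGCGG on the minus strand at -84. No matches overlapped each other. Of 27025 promoters of this length, CCAAT is held by 37.9%, GGGCGG by 35.9%, TTTCCCGC by 1.11%, TTTGGCGC by 0.537% and TTTCGCGC by 0.318%. These matches describe the sequence and do not show that a factor binds there.

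Terf1, a subunit of shelterin that binds the double-stranded telomere repeat, had values of 4.11, 3.24, 2.78 and 0.65 in young samples, with replicate 5 at the lowest value. The aged samples were at 6.89, 5.02, 8.05, 6.35 and 4.24, and all 5 were above all 4 young samples, although the gap between aged replicate 5 and young replicate 2 was small. The means were 2.70 ± 1.47 (SD, n = 4) and 6.11 ± 1.51 (SD, n = 5), with a log2 fold change of -3.41 (SE 0.88, limma adjusted p = 0.534). Terf1 lies on chr1:15805646-15844052 (mm10, plus strand) and shares no exonic base with another annotated gene of the types searched. Fanca, Chek2 and Terf1 each kept an unadjusted limma p under 0.05 and their direction between young and aged HSCs in every alternative processing in which they were tested, including the omission of each sample in turn.

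**Figure D4:**
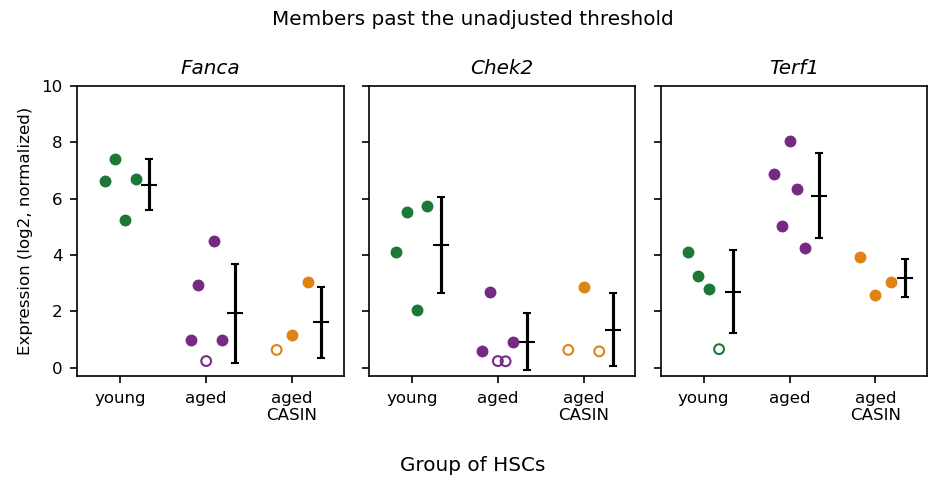
Log2 expression of Fanca, Chek2 and Terf1 in each sample, by group. Filled points are detected values, open points are at the lowest value of the sample, and black bars show the mean and SD. The young samples lie above all aged samples for Fanca and below all of them for Terf1, and for Chek2 the groups overlap.

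Values of young and aged samples did not overlap for 4 members, Fanca, Xrcc4, Fancc and Terf1, beside 9.15% of all genes. When every sample was given the same lowest value, 3 of them did not overlap, beside 1.96% of all genes. The exception was Xrcc4, which holds the end-joining ligase at a break. It was detected in young replicate 4 (2.40) and aged replicate 2 (0.22) only, and apart from these values the gap between the groups lay between the lowest values of the samples (log2 fold change 0.87, SE 0.43, limma adjusted p = 0.764). Fancc, another subunit of the Fanconi core complex, was at the lowest value in all 4 young samples and at 1.63, 1.45, 1.54, 4.95 and 1.97 in aged samples. Its log2 fold change was -1.75 (SE 1.11, limma adjusted p = 0.764), and the young samples, with lowest values of up to 0.67, were all below the aged ones. Fancc shares 185 exonic bases (2.21%) with 2010111I01Rik on the opposite strand, which was detected in all 7 samples that detected Fancc and was at 7.61 in aged replicate 4 and 9.64 in CASIN replicate 3, the samples with the highest Fancc of their groups. 2010111I01Rik was also at 3.35 and 2.26 in young replicates 3 and 4, where Fancc was at the lowest value. In aged replicate 0 it was at 6.51, with Fancc at 1.63. The part of the shared bases in the values of Fancc was not tested.

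Among the members with the largest fold changes, Nbn was higher in young HSCs, and Atr and Trp53bp1 were lower, but none of the 3 passed the unadjusted threshold. Atr, the kinase of replication stress, was detected only in replicate 5 of the young samples (4.96) and was at 5.28, 7.25, 7.55, 3.82 and 0.16 in aged samples, with a log2 fold change of -3.18 (SE 1.62, limma adjusted p = 0.764). Trp53bp1, a scaffold at broken ends that favours end joining, was at 7.04, 0.48, 7.41 and 0.65 in young samples and between 6.07 and 7.88 in aged samples, with a log2 fold change of -2.95 (SE 1.46, limma adjusted p = 0.764). For Trp53bp1 the young samples that detected it lay within the range of aged samples, and the other two were at the lowest value. For Atr the young sample that detected it was below 3 of the 4 aged samples that did. Nbn, part of the complex with Mre11a and Rad50 that binds broken ends, was at 5.72 and 6.32 in young replicates 2 and 5 and at the lowest value in the other two. Its aged samples ranged from 0.22 to 2.94, and the log2 fold change was 2.15 (SE 1.30, limma adjusted p = 0.764).

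The other sensors of breaks did not move together. Mre11a, the nuclease of that complex, was detected in 0 of 4 young and 5 of 5 aged samples, with aged values from 0.58 to 7.64. Rad50 was detected in 2 of 4 and 5 of 5 samples, and young replicate 2, at 7.66, was above every aged sample. Mdc1, which binds a phosphorylated histone variant at breaks, was detected in all young and aged samples, between 4.55 and 7.49 and between 2.54 and 7.81. H2afx, the gene of that histone variant, was detected in 2 young and 2 aged samples, up to 3.88. Of these 6 genes, with Nbn and Trp53bp1, 3 had a higher and 3 a lower mean in young samples, with none past the unadjusted threshold.

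Brca1 and Brca2, which load the recombinase onto broken ends, were detected in all 5 aged samples and in 3 of 4 young samples each. Brca1 was between 3.92 and 5.51 in aged samples and reached 6.63 in young ones. Brca2 was between 1.32 and 7.20 in aged samples and reached 7.78 in young ones. Among the end-joining genes, Prkdc, the DNA-dependent kinase, was detected in 3 of 4 young and 5 of 5 aged samples, between the lowest value and 7.99. Xrcc5 and Xrcc6, the Ku subunits that cap broken ends, were each detected in 1 young sample and in 3 and 4 aged samples. Lig4, the ligase of this pathway, was detected in 1 young and 5 aged samples, with the highest aged value at 7.77. In end joining 2 genes had a higher and 3 a lower mean in young samples.

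The remaining Fanconi genes were poorly detected. Fancm, which moves along branched DNA, and Fancl, the ubiquitin ligase of the pathway, were detected in no young sample, and in 4 and 1 aged samples. Fancd2, the protein that is ubiquitinated, was detected in 1 young and 2 aged samples, with no value above 2.86. Fancg, a core subunit, was detected in 2 young and 4 aged samples, with highest values of 6.56 and 6.75. In excision repair, Xpa and Xpc, which verify and recognise damage, and Ercc1, part of an endonuclease, were detected in 1, 2 and 1 young and in 1, 3 and 2 aged samples. Parp1, which marks strand breaks with ADP-ribose, was detected in 2 young and 3 aged samples and reached 9.79 in young replicate 5 and 7.26 in aged replicate 0. Of the other telomere genes, Tert, the catalytic subunit of telomerase, was detected in young replicate 2 (7.83) and in 2 aged samples, up to 1.39. Terf2 was detected in 1 young and 5 aged samples, and Pot1a in 2 and 5. How reads shared by Pot1a and its close relative Pot1b were counted is not given in the sources used here.

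**Figure D5:**
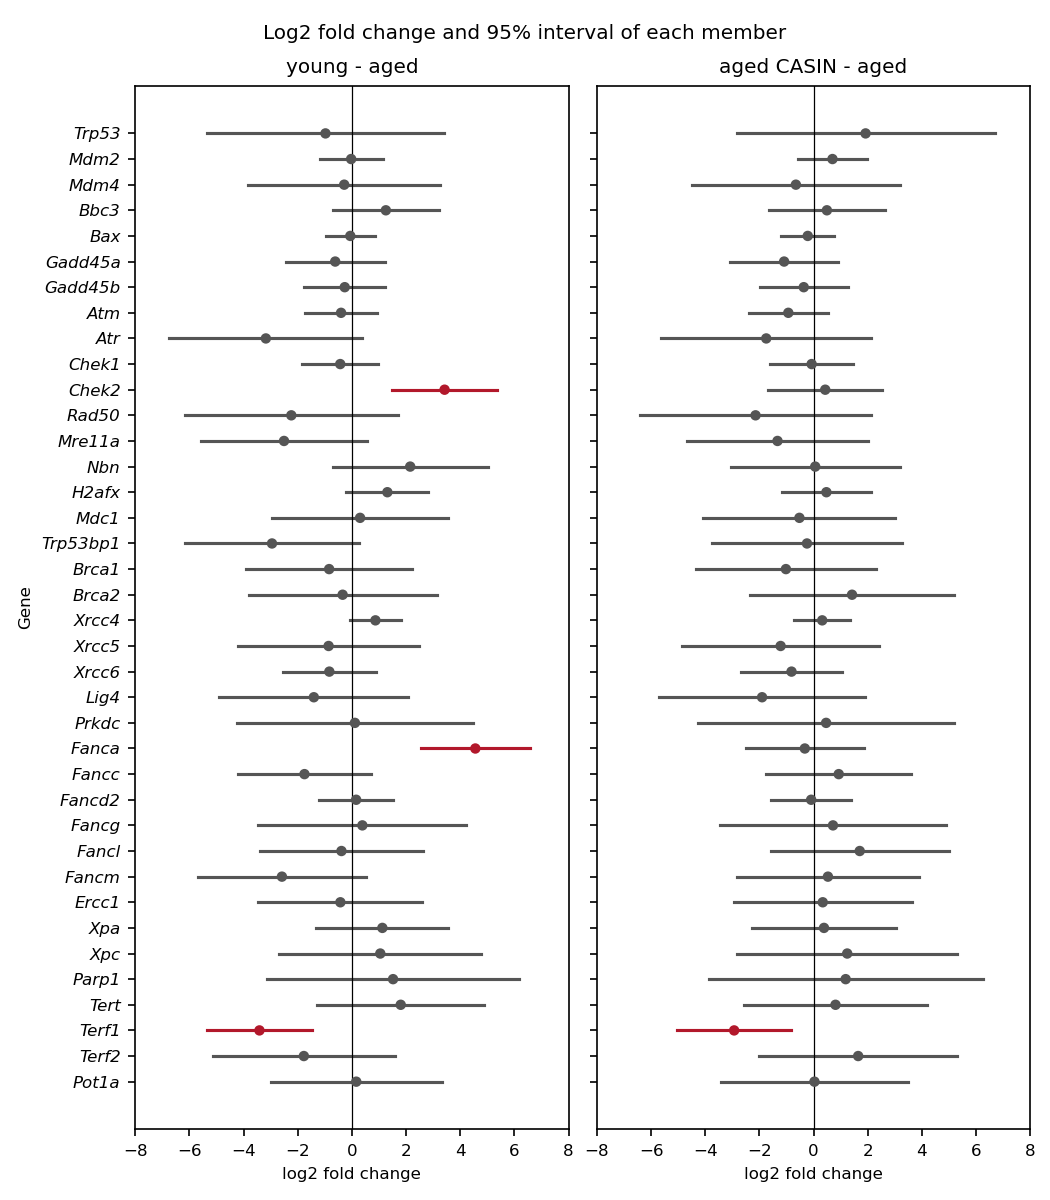
Log2 fold change (points) and 95% interval (lines) of each of the 38 members for young minus aged HSCs (left) and aged CASIN-treated minus aged HSCs (right), from limma. Red marks an unadjusted p under 0.05, reached by Fanca, Chek2 and Terf1 on the left and by Terf1 on the right, and the other intervals include 0.

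The second comparison asks what CASIN does in aged HSCs. Terf1 was lower after CASIN, and no other member passed the unadjusted threshold. This is 1 of 38 members (2.63%), beside 4.4% of all genes (2.48% higher and 1.92% lower after CASIN), and no member had an adjusted p under 0.05 (limma, lowest adjusted p = 0.948), beside 0.0222% of all genes. Of the 38 members, 7 were detected in all 3 treated samples (Mdm2, Bbc3, Atm, Chek1, Trp53bp1, Brca2 and Terf1), 19 in 2 and 11 in a single sample, which was replicate 2 for all 11, and Bax in none. The members were split into 20 higher and 18 lower, with a median log2 fold change of 0.05 beside -0.04 for all genes. After centring, 25 were higher and 13 lower. The aged samples are the same as in the first comparison, and a high or low aged sample moves both.

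Terf1 was at 3.92, 2.58 and 3.03 in CASIN-treated samples, below all 5 aged samples, of which the lowest was 4.24. The mean was 3.17 ± 0.68 (SD, n = 3) beside 6.11 ± 1.51 (SD, n = 5) in aged samples. The log2 fold change was -2.93 (SE 0.95, limma adjusted p = 0.948), and the unadjusted p stayed under 0.05 in all 22 alternatives. The values of Terf1 in CASIN-treated samples lay within the range of young samples, with a log2 fold change of young against CASIN-treated HSCs of -0.48 (95% interval -2.68 to 1.72). Apart from Terf1, only Xrcc4 had groups that did not overlap, beside 4.82% of all genes. With the same lowest value in every sample only Terf1 remained, beside 2.11% of all genes.

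For the members with the next largest fold changes after CASIN the samples disagreed. Trp53 was at 8.52 and 5.83 in CASIN replicates 1 and 2 and at the lowest value in replicate 3, and aged samples ranged from 0.22 to 6.27 (log2 fold change 1.92, SE 2.16, limma adjusted p = 0.948). Fancl was at 7.15 in CASIN replicate 1 only, with values of at most 0.58 in the other two (log2 fold change 1.70, SE 1.49). Without that replicate the log2 fold change was -0.55. Terf2, the other shelterin subunit that binds the repeat, was at 7.67, 5.46 and 0.58 (log2 fold change 1.65, SE 1.65). Rad50 was at 0.63, 1.20 and 6.88 (log2 fold change -2.14, SE 1.93), and Lig4 at 3.34, 0.86 and 0.58 (log2 fold change -1.90, SE 1.72). In each of these genes 1 CASIN-treated sample stood well apart from the other two. Without CASIN replicate 2, the sample with the most genes detected, Atm and Terf1 passed the unadjusted threshold, beside 7.18% of all genes. Without replicate 3 Terf1 and Terf2 did, beside 4.43% of all genes.

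Mdm2 was at 7.48 to 7.67 in the 3 treated samples, with a log2 fold change of 0.70 (95% interval -0.57 to 1.96). Fanca and Chek2, which were higher in young HSCs, had values of 0.63, 1.15 and 3.03 and of 0.63, 2.85 and 0.58 after CASIN. These lay within the range of aged samples, apart from Chek2 in replicate 2, which was above the highest aged value of 2.69. The log2 fold changes were -0.32 (95% interval -2.51 to 1.86) for Fanca and 0.43 (95% interval -1.67 to 2.53) for Chek2. By role, all 4 genes of excision repair with Parp1 had a higher mean after CASIN, with log2 fold changes from 0.34 to 1.24, and none passed the unadjusted threshold. These means rest on few samples. Xpa and Xpc were detected in CASIN replicate 2 only. Ercc1 was at 5.01 in CASIN replicate 1 and at most at 0.58 in the other treated samples. Parp1 was detected in CASIN replicates 2 and 3. The lowest values of CASIN replicates 1 and 3 (0.63 and 0.58) also lay above those of all aged samples (at most 0.23). Samples without detection therefore add to these differences.

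Young HSCs were also compared with aged HSCs treated with CASIN. Fanca and Chek2 were higher in young HSCs, and they were the only members past the unadjusted threshold, 2 of 38 (5.26%) beside 4.29% of all genes (1.39% higher and 2.9% lower in young HSCs). No member had an adjusted p under 0.05 (limma, lowest adjusted p = 0.402), nor had any of all genes (0% called, with 968 of 22548 at an unadjusted p under 0.05). Fanca had a log2 fold change of 4.88 (SE 1.04, limma adjusted p = 0.402), and it was the only member whose groups did not overlap, beside 2.96% of all genes, or 2.07% with the same lowest value in every sample. Chek2 had a log2 fold change of 2.99 (SE 0.99, limma adjusted p = 0.962), with young replicate 4 at 2.03 below CASIN replicate 2 at 2.85. With a variance trend in limma, Chek2 did not pass the unadjusted threshold. Next came Nbn at 2.09 (SE 1.48), and the lowest fold changes were those of Terf2 at -3.42 (SE 1.73), Fancm at -3.11 (SE 1.60) and Trp53 at -2.89 (SE 2.26). Fancm was at the lowest value in all 4 young samples and at 0.63, 7.36 and 3.03 after CASIN. The members were split into 20 higher and 18 lower, with a median of 0.12 beside 0.09 for all genes, and this comparison shares its samples with the other two.

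Genes of the same pathways outside the list of members behaved alike in number. Of 138 such genes in 10 lists (recombination, end joining, checkpoints, p53 targets, crosslink repair, nucleotide excision, base excision, mismatch repair, telomeres and lesion bypass), 135 were found. Between young and aged HSCs 10 of them passed the unadjusted threshold, with 5 higher and 5 lower in young HSCs (7.41%, beside 5.33% of all genes). After CASIN 3 passed (2 higher, 1 lower, 2.22% beside 4.4%), and between young and CASIN-treated HSCs 10 passed (5 higher, 5 lower, 7.41% beside 4.29%). None had an adjusted p under 0.05 in any of the comparisons.

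Only 3 of them had an unadjusted p under 0.01, all between young and aged HSCs, where 1.34% of all genes did (0.927% after CASIN and 1.07% between young and CASIN-treated HSCs). Neil2, a glycosylase of base excision repair, was at 6.66, 3.92, 4.80 and 0.65 in young samples and at most 1.46 in aged samples, with a log2 fold change of 3.53 (SE 0.96, limma adjusted p = 0.542). Apaf1, the core of the apoptosome and a target of p53, was detected in 1 young sample (6.74) and in 5 aged samples between 4.99 and 6.74, with a log2 fold change of -3.86 (SE 1.17, limma adjusted p = 0.652). Timeless, which keeps the replication checkpoint active at the fork, was at 0.67, 3.82, 4.29 and 6.60 in young samples and at most 1.36 in aged samples, with a log2 fold change of 2.97 (SE 0.94, limma adjusted p = 0.735). Young replicate 3, the sample with high Apaf1, was as high as the aged samples.

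Lists of other genes that could move with the members were read in the same way. At an unadjusted p under 0.05, 3.2% of all genes were lower and 2.13% higher in young against aged HSCs. After CASIN 1.92% were lower and 2.48% higher, and in young against CASIN-treated HSCs 2.9% and 1.39%. Whether any list departs from these shares was not tested. Of 20 proliferation genes, 2 were lower in young than in aged HSCs at an unadjusted p under 0.05 and 1 was lower after CASIN. In young against CASIN-treated HSCs 1 was lower, and none was higher in any comparison. The summed log2 value of this list was 44.7 to 60.9 in young, 51.3 to 65.9 in aged and 40.5 to 55.3 in CASIN-treated samples. Of 14 HSC markers none passed in any comparison, with sums of 29.5 to 43.3, 21.3 to 37.0 and 33.1 to 47.1. Of the genes that the sort of HSCs excludes or that HSCs lack (Cd34, Flt3 and Cd48), none passed. None passed among markers of erythroid cells (8 of 10 found) and B cells (7), and 1 of 6 megakaryocyte markers was higher after CASIN. T cell markers (6) had 1 gene higher in young than in aged HSCs and 1 higher after CASIN, and myeloid markers (9) had 1 higher in young than in aged HSCs. Stromal and endothelial markers (6) had 2 genes lower in young than in aged HSCs, with sums of 9.57 to 24.2 and 16.6 to 29.1, and 1 gene higher and 1 lower in young than in CASIN-treated HSCs. Their part in the values of the members was not tested.

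Of the 38 members, 15 share exonic bases with another annotated gene of the types searched, nearly all on the opposite strand. Pseudogenes and small RNAs were not searched. Whether reads were counted by strand is not given in the sources used here, and reads of such pairs may not have been told apart. The overlap was widest in share for Gadd45a (19.1% of its exonic bases, with E230016M11Rik), Fancc (16.4%, with Gm16133) and Trp53bp1 (15.0%, with Tubgcp4). The partner was detected in 4 of the 10 samples that detected Trp53bp1 (Tubgcp4), 6 of 7 for Mre11a (Ankrd49), 5 of 6 for Xrcc6 (Desi1), 5 of 5 for Ercc1 (Cd3eap), 3 of 3 for Xrcc4 (Tmem167), 3 of 4 for Fancd2 (Fancd2os), 2 of 3 for Fancl (Vrk2), 2 of 6 for Gadd45a, 1 of 3 for Xpa (Ncbp1) and 1 of 7 for Atr (1700065D16Rik). Cd3eap was above the lowest value in all 12 samples, and Tmem167 in all but CASIN replicate 3. The counts for Ercc1 and Xrcc4 could therefore hardly differ from these. Whether the overlapping genes share reads was not tested.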

How the data were processed

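The 12 RNA-seq samples were grouped by age and treatment from the labels. Libraries were made with an amplification kit for single cells, from at least 200 sorted cells per the series' design text and from a larger pool per the study's methods, a difference that remains unsettled here. Reads were trimmed at a phred score of 20, aligned to mm10 with TopHat (named in the submitters' processing notes) and processed with Cufflinks. The authors deposited quantile-normalized log2 values for 22548 genes. The step from Cufflinks to these values is not given in the sources used here. Quantile normalization hides differences in total RNA, and precision is set by the number of samples.

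Values were used as deposited. Groups were compared with limma 3.58.1 (R 4.3.3) in a single fit of 12 samples and 3 groups, two-sided, with no filter and no pseudocount, with Benjamini-Hochberg adjustment over all genes at 0.05, and checked on simulated data. Percentages of genes at the lowest value were compared by exact permutation, and the Spearman correlation was computed with scipy 1.17.1. Members and gene lists were chosen with earlier results of these data known. Folds are given for members with an unadjusted p under 0.05, members whose groups do not overlap, and the 3 largest and 3 smallest, and other pathway genes are named at an unadjusted p under 0.01. Positions are from GENCODE M21 (mm10), and figures were drawn with matplotlib 3.10.9. Alternatives were a common lowest value (0.67), centring, 2 filters, a pseudocount of 0.1, array weights, limma-trend, 2 groups only, a replicate block, a detection covariate and each sample left out.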

Additional observations from a re-analysis of the deposited data

Results flagged for a closer look

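In 21 of 76 combinations of a member with the young or the aged group (27.6%), a single sample stood far above the others of its group. In 15 of the 21 that sample was the only one of its group that detected the gene, and with the others at their lowest values a lone detection well above these is picked out by construction. Chance gives about 1 in 20 for continuous values only, so this rate is no yardstick for those 15, and 6 combinations remain without them. Some of the 6 also hold samples at their lowest value, such as Fancd2 in aged replicates 2, 4 and 5, and the rate does not apply to these either. The same share over all genes is not given here, so 27.6% is not read as a trait of the members. The 76 combinations leave out CASIN-treated samples, a group too small for this test.

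Among young samples 12 members were concerned. In replicate 2 these were Trp53 (log2 value 6.75), Xpa (5.72) and Tert (7.83), and in replicate 3 they were Lig4 (6.61), Ercc1 (3.02) and Terf2 (2.85). In replicate 4 they were Gadd45a (1.84), Xrcc4 (2.40), Xrcc5 (5.86), Xrcc6 (1.84) and Fancd2 (2.03), and in replicate 5 Atr (4.96). All other young samples were at their lowest value for these genes.

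Among aged samples 9 members were concerned. In replicate 0 these were Gadd45b (3.48), Fancl (4.09) and Parp1 (7.26), and in replicate 2 Chek2 (2.69) and Xpa (2.79). In replicate 3 they were Gadd45a (4.68) and Fancd2 (2.86), in replicate 4 Fancc (4.95) and in replicate 5 Fancg (6.75). The values for Gadd45b, Fancl and Xpa stood alone above the lowest value, and for the other 6 members at least 1 further aged sample detected the gene at a lower level.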

How the results depend on the processing

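Between young and aged HSCs, 3 members passed the unadjusted threshold, beside 5.33% of all genes. After centring, with limma-trend and with only the 2 groups compared 5 did, beside 6.42%, 9.27% and 5.18% of all genes. Leaving out each sample in turn gave 3 to 6 members, beside 5.04% to 5.67% of all genes. The count was 6 without young replicate 2 and 5 without young replicate 3, 4 or 5 or aged replicate 5. Fanca, Chek2 and Terf1 were among the passing members each time they were tested. After CASIN, leaving out samples gave 1 to 2 members, with 2 without CASIN replicate 2 or 3. In these 2 refits 7.18% and 4.43% of all genes passed, beside 4.4% with all samples. Between young and CASIN-treated HSCs, 1 member passed among genes with a mean of at least 3 and 1 with limma-trend. The shares of all genes tested were 6.67% and 3.48%. Leaving out samples gave 2 to 4 members, with 4 without CASIN replicate 1 or 3 (4.83% and 4.41% of all genes). No member reached an adjusted p under 0.05 in any alternative. The lowest was 0.0990, for Fanca between young and aged HSCs without aged replicate 4.

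Under the alternatives other than leaving a sample out, the median fold change of the members ranged from -0.43 to 0.14 in young against aged HSCs. It ranged from -0.28 to 0.40 after CASIN and from -0.35 to 0.25 in young against CASIN-treated HSCs. These ranges pool unlike settings. The values -0.28 and -0.35 are from genes with a mean of at least 3, which hold 14 of the members. The values 0.14 and 0.40 are from centring, where the medians of all genes were 0.44 and 0.31. The value 0.25 is from the replicate block. With values of at least 3 (chosen after seeing the data), the median number of members per sample was 14 in young and 16 in aged HSCs. The mean share of all genes at this level was 29.2% and 30.5%, which quantile normalization holds nearly alike. The share of all genes without signal differed by 24.4 to 31.2 points between young and aged HSCs when samples were left out, and by 2.09 to 31.3 points between CASIN-treated and aged HSCs, with 31.3 (exact permutation test, p = 0.0476) without CASIN replicate 2. Over 21 named fold changes and 450 refits, 428 kept their side of the threshold and direction, 17 newly passed, 1 no longer passed and 4 changed sign. When samples were left out, Fancl after CASIN lay between -0.55 (without CASIN replicate 1) and 2.92 (without CASIN replicate 2), since CASIN replicate 1 was at 7.15 and the other treated samples at most at 0.58. For the other results, the cause of the changes was not tested.

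Samples with the same replicate number did not deviate together: 8 same-numbered pairs had correlations of their deviations between -0.03 and 0.06. This does not exclude a shared mouse or day, which the labels do not give. With the replicate number as a block, 3, 1 and 3 members passed in the comparisons in the order above, beside 5.2%, 3.99% and 4.77% of all genes. Replicate numbers 0 and 1 each occur in a single sample. This fit therefore gives aged replicate 0 and CASIN replicate 1 no weight in the comparisons. In it Trp53 turned to -0.83 after CASIN and to 0.50 in young against CASIN-treated HSCs, and Terf2 to -0.98 after CASIN. CASIN replicate 1 held the highest CASIN-treated values of Trp53 (8.52) and Terf2 (7.67). The depth is unknown, so a member at the lowest value is not shown to be absent.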
